A study of Mus musculus with 31 samples.

Results

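The genes described here are 31 genes of S phase, the part of the cell cycle in which DNA is copied. They were chosen by name, each as the row of that symbol in every one of 21 RNA sequencing tables, and all 31 were found in all 21. The tables of sorted cells list 24062 genes and those of cultured cells 24322. The sorted cells were EGFP-positive cells of the hippocampal dentate gyrus of Nestin-EGFP mice (C57BL/6), in which the Nestin transgene marks neural stem cells and cells that have recently left that state and still hold the protein. MDZ P10 mice were injected with midazolam, a benzodiazepine sedative acting on GABA-A receptors, at 10 mg/kg on postnatal days 7, 8 and 9, and Control P10 mice with water. Both were collected on postnatal day 10. RUN MDZ 8w, MDZ 8w and Control 8w cells came from mice of 8 weeks: midazolam-injected with a running wheel, midazolam-injected without one, and water-injected without one. Of the samples listed, none came from running mice without midazolam. Egr1 culture and Control culture were neural stem cells of ICR embryonic day 11 cortex, passaged more than 20 times. Both received a lentivirus for the transactivator M2rtTA, and Egr1 culture also received one for Flag-tagged Egr1, an immediate early zinc finger transcription factor. Each of the 7 groups had 3 libraries. A P10 library held cells of 1 mouse, and an 8-week library pooled cells of 3 to 5 mice.

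Before S phase, the origin recognition complex (with Orc1) and the loaders Cdc6 and Cdt1 place the ring of Mcm2 to Mcm7 on DNA, which licenses an origin. Cdc45 and the GINS complex then join the ring to make the active helicase, with help from Mcm10. DNA polymerase alpha with its primase starts each strand, replication protein A covers single strands, the clamp loader puts the clamp PCNA on DNA, and FEN1 trims the ends of lagging-strand fragments. Ribonucleotide reductase, thymidylate synthase and thymidine kinase supply nucleotides, and histone chaperones and methylation readers rebuild chromatin behind the fork. Transcription factors of the E2F family switch many of these genes on at the start of S phase, so their mRNAs are widely used as a sign of dividing cells. In the dentate gyrus, radial glia-like stem cells divide rarely in the adult and their intermediate progenitors divide often.

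Promoters of 5 members are shown because they carry the motifs by which S phase genes are best known. The genes stand for groups treated below: Mcm5, Mcm6 and Mcm3 for licensing, Slbp for histone supply and Pcna for the fork. Each is a stretch of 100 bases upstream of the gene start, placed to hold its motifs, from RefSeq on GRCm38.p6, 5′ to 3′ on the gene's strand. They lie at chr8:75109356-75109455 (plus strand), chr1:128359716-128359815 (minus), chr1:20820330-20820429 (minus), chr5:33652583-33652682 (minus) and chr2:132253181-132253280 (minus). Capitals mark E2F-type motifs and CCAAT boxes on either strand, and ATTGG is a CCAAT box on the other strand.
Mcm5: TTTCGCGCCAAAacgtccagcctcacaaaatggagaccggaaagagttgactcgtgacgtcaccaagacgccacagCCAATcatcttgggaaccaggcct
Mcm6: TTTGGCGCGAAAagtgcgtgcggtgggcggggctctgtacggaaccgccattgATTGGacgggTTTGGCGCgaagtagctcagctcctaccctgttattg
Mcm3: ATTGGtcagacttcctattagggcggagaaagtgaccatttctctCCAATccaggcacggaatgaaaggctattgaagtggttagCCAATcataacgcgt
Slbp: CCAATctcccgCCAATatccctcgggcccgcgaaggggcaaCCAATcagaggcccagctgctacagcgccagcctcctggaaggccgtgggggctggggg
Pcna: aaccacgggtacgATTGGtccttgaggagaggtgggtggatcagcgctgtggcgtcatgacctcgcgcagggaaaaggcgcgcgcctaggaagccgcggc
In Mcm5 and Mcm6 the long capital run at the left end holds 2 E2F-type motifs that overlap on opposite strands. Mcm6 has another such motif further on, while the stretches of Slbp and Mcm3 hold 3 CCAAT boxes each and that of Pcna holds 1. The 2 E2F-type motifs of Mcm3 lie past its start, outside the stretch shown.

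Over the whole promoter table (250 bases before to 50 after each start), 27 of the 31 members had an entry, all but Mcm4, Gins1, Gins2 and Rfc2. An E2F-type motif (TTTCGCGC, TTTGGCGC, TTTCCCGC or TTTGCCGC, either strand, overlaps counted) stood in 11 of the 27, or 40.7%, against 704 of 27025 genes (2.6%). The 11 were Orc1, Cdc6, Cdt1, Mcm3, Mcm5, Mcm6, Mcm7, Pola1, Uhrf1, Hells and Dtl, so 7 of them belong to licensing. A CCAAT box (CCAAT, either strand) stood in 17 members (63%) and 41.1% of all genes. The cell cycle homology region of late cell cycle genes (TTTGAA or TTCGAA, either strand) stood in 4 members (14.8%) and 21.7% of all genes. The motif GCGTGGGCG, which EGR1 is known to bind, stood on either strand in 1 member, Chaf1b (3.7%), and in 0.707% of all genes. These shares describe letters in a window and show no binding.

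Levels are FPKM (fragments per kilobase, scaled to library size) at P10 and TPM (transcripts scaled to a fixed total) elsewhere. Both are per length, so genes can be compared within a library, but the tables were normalized apart. P10 libraries listed 17623 to 18470 genes above 0 and culture libraries 15537 to 15998. MDZ 8w listed 15382 to 16709, RUN MDZ 8w 15568 to 15906 and Control 8w 11163, 11397 and 11246. Read counts were not used here, so depth is known only as relative depth at P10 (0.571 to 1) and in culture (0.899 to 1), and not at 8 weeks. Control 8w replicates 2 and 3 were nearly the same (Spearman 0.9919, and a robust SD of the log2 ratio of 0.265 among genes at 20 to 50 TPM), while replicate 1 stood apart from them (robust SD 1.44 and 1.35). Replicates 2 and 3 were therefore averaged to 1 sample, and Control 8w has n = 2 in every 8-week test. Of the members, Control 8w replicate 1 listed 8 at 0 (Orc1, Mcm10, Gins1, Cdc45, Pola1, Rfc4, Tk1 and Dtl), replicate 2 listed 3 (Mcm10, Gins2 and Tk1) and replicate 3 listed 2 (Gins2 and Tk1). RUN MDZ 8w replicates 2 and 3 listed Orc1 at 0, and no other library listed a member at 0. Radial glia markers were present in all 21 libraries, with none of 10 at 0. Oligodendrocyte markers were also high in the sorted P10 cells, with sums of 1235 to 1628 FPKM in MDZ P10 and 1248 to 2793 FPKM in Control P10, against radial glia sums of 1973 to 2082 FPKM in MDZ P10 and 1944 to 2555 FPKM in Control P10.

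Pcna was the most abundant member in each of the 21 libraries. Ranked among 23727 genes shared by all tables, the median member stood at percentile 69.5 in MDZ P10, 67.5 in Control P10, 65.3 in RUN MDZ 8w, 78.1 in MDZ 8w, 74 in Control 8w, 89 in Egr1 culture and 90.3 in Control culture. Ranks across tables of different makeup are a description only. The 6 subunits of the Mcm2 to Mcm7 ring, which works as one copy of each, were closest to each other in culture, where the highest was 1.31 to 1.59 times the lowest. That ratio was 1.64 to 2.13 at P10, 3.56 to 4.84 in RUN MDZ 8w, 2.35 to 3.10 in MDZ 8w, and 18.0, 3.24 and 3.05 in Control 8w. The ratio of 18.0 in Control 8w replicate 1 came from Mcm3 at 13.4 TPM and Mcm7 at 242 TPM.

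**Figure D1:**
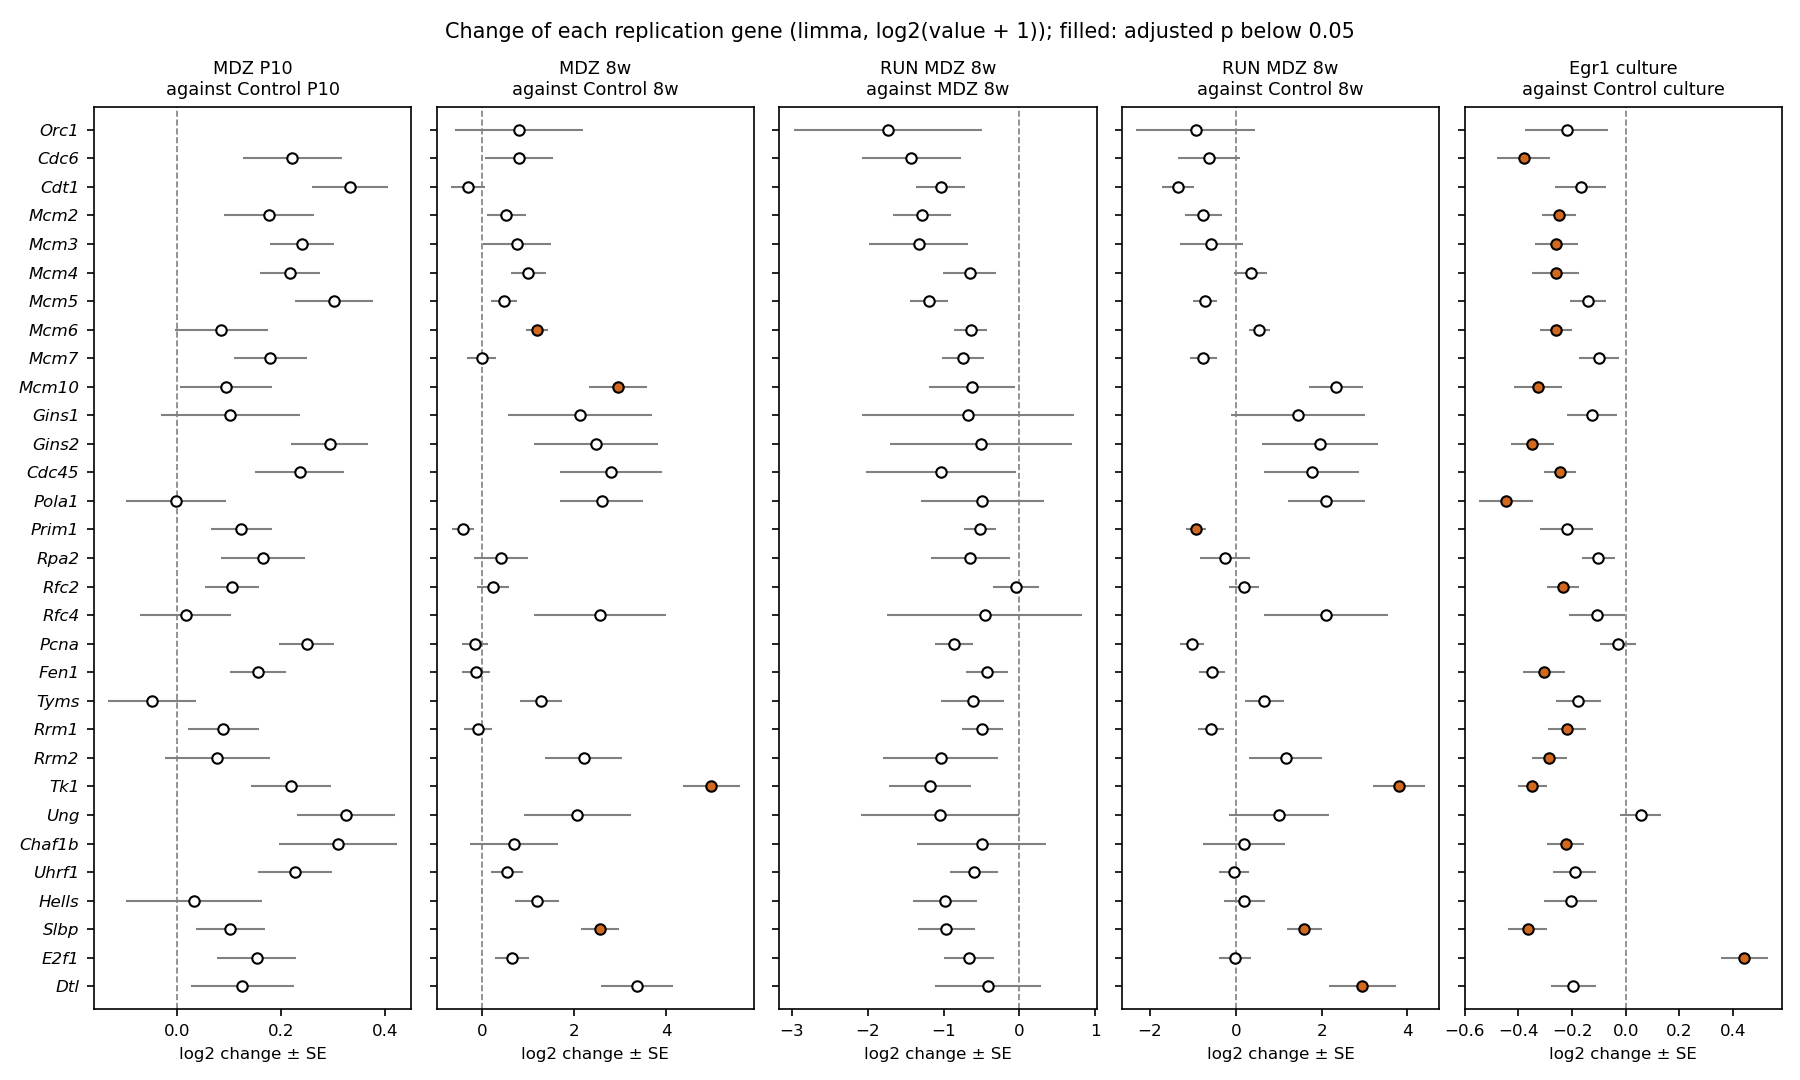
log2 change ± SE of each replication gene (down the page) in 5 comparisons (across), from limma on log2(value + 1); filled points have an adjusted p below 0.05, and Orc1 was not tested at P10. The points of Tk1 against Control 8w depend on the pseudocount, since Control 8w was listed at 0. All 31 points lie left of 0 in RUN MDZ 8w against MDZ 8w, 28 of 30 lie right of 0 at P10, and 29 of 31 lie left of 0 in culture.

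The first comparison asks how midazolam altered these genes on the day after the last injection. No member passed the test in MDZ P10 against Control P10, where 1 of 12914 genes did (0.00774%, either direction). The changes were small and mostly of one sign. Of 30 members tested (Orc1 was below the minimum mean of 1 FPKM), 28 were positive, with a median log2 change of 0.16 against 0.0148 for all genes tested. For 16 of the 30 the lowest MDZ P10 value exceeded the highest Control P10 value, which held for 12.2% of all genes. At an unadjusted p below 0.05 there were 14 members, and the lowest adjusted p was 0.215. Summed over the 31 members, the level was 326, 315 and 334 FPKM in MDZ P10 and 279, 269.6 and 311 FPKM in Control P10, so the groups did not overlap, and the highest Control P10 library was replicate 3. In bulk samples like these, a change in the number of cells of a type and a change in RNA per cell cannot be told apart.

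Licensing genes had the highest median at P10, 0.22, with 8 of 8 tested positive and 6 not overlapping. Cdt1, which loads the Mcm ring and is destroyed once S phase begins, measured 7.77, 7.39 and 7.75 FPKM in MDZ P10 and 5.55, 5.51 and 6.57 FPKM in Control P10. The groups did not overlap, and its log2 change of 0.33 ± 0.07 was the largest of the members (limma adjusted p = 0.215). Mcm5 measured 11.8, 13.4 and 14.0 FPKM in MDZ P10 and 10.7, 9.66 and 10.9 FPKM in Control P10 (log2 0.30 ± 0.07, adjusted p = 0.244). Mcm3 measured 12.2, 13.3 and 13.2 FPKM in MDZ P10 and 10.4, 10.5 and 11.5 FPKM in Control P10, and Mcm4 12.9, 12.6 and 12.6 FPKM in MDZ P10 and 10.1, 10.9 and 11.4 FPKM in Control P10. None of these 3 overlapped between groups, and neither did Cdc6 and Mcm7. Mcm6, the most abundant ring subunit at P10, measured 22.2, 20.3 and 22.4 FPKM in MDZ P10 and 20.0, 18.0 and 23.2 FPKM in Control P10. Its groups overlapped (log2 0.08 ± 0.09, adjusted p = 0.729). Orc1 stood at 0.951, 0.949 and 1.35 FPKM in MDZ P10 and 0.732, 0.804 and 0.805 FPKM in Control P10, too low to be tested.

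Among genes that act at the fork, Pcna measured 44.7, 41.3 and 43.3 FPKM in MDZ P10 and 35.1, 36.2 and 37.1 FPKM in Control P10. The groups did not overlap, with MDZ P10 higher (log2 0.25 ± 0.05, limma adjusted p = 0.215). Fen1, Rfc2 (a clamp loader subunit) and Prim1 (the catalytic primase subunit) also did not overlap, with log2 changes of 0.16, 0.11 and 0.12. Pola1, the catalytic subunit of DNA polymerase alpha, had a log2 change of -0.00194 and overlapping groups. Of the helicase activators, Gins2 measured 5.90, 5.41 and 6.58 FPKM in MDZ P10 and 4.69, 4.80 and 4.51 FPKM in Control P10 (log2 0.29 ± 0.07, adjusted p = 0.247), and Cdc45 5.34, 4.76 and 5.31 FPKM in MDZ P10 and 3.69, 4.68 and 4.29 FPKM in Control P10. Both were higher in 3 of 3 MDZ P10 libraries than in any Control P10 library, while Gins1 and Mcm10 overlapped.

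In the nucleotide group, Ung, which removes uracil from DNA, measured 3.84, 4.37 and 3.92 FPKM in MDZ P10 and 2.76, 2.78 and 3.57 FPKM in Control P10 (log2 0.33 ± 0.09, limma adjusted p = 0.274). Tk1, the S phase thymidine kinase, measured 7.36, 6.35 and 7.41 FPKM in MDZ P10 and 5.95, 5.46 and 6.31 FPKM in Control P10 (log2 0.22 ± 0.08). Neither overlapped between groups. Tyms, thymidylate synthase, and the ribonucleotide reductase subunits Rrm1 and Rrm2 overlapped, at -0.05, 0.09 and 0.08. Among chromatin genes, Chaf1b (the histone chaperone CAF-1) had a log2 change of 0.31 ± 0.11 and Uhrf1 (a reader of half-methylated DNA) one of 0.23 ± 0.07, both without overlap. Hells, a chromatin remodeller, and Slbp, which binds the stem-loop of histone mRNA, overlapped. So did the regulators E2f1 (0.15) and Dtl (0.13), the receptor of the ubiquitin ligase that destroys Cdt1.

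Most genes of later cell cycle phases had a negative sign at P10. Of 34 G2/M genes, 0 passed (lowest adjusted p 0.528, 0 at an unadjusted p below 0.05), 11 were positive, the median was -0.03 and none lay above Control P10 without overlap. Their sum was 258, 248 and 292 FPKM in MDZ P10 and 252, 245 and 316 FPKM in Control P10. Mki67, a marker of cycling cells, and Top2a, the topoisomerase that separates sister chromosomes, had log2 changes of -0.14 ± 0.12 and -0.02 ± 0.10 (adjusted p = 0.653 and 0.954). Of 56 other replication genes, 0 passed, 42 were positive (median 0.07) and 18 did not overlap upward, and of 21 E2F and G1/S regulators 0 passed and 15 were positive (median 0.04). The difference between the replication and G2/M lists was not tested. Of cell type markers at P10, pericyte markers were lower without overlap in sum (208.7 to 223.0 FPKM in MDZ P10, 240.8 to 271.7 FPKM in Control P10, 9 of 10 negative). All 10 oligodendrocyte markers were negative and 9 of 10 oligodendrocyte precursor markers positive. No marker was at 0 and none passed, and the part of these in the changes of the members was not tested. Leaving out 1 library at a time, 25 to 30 of the 30 members were positive and their median was 0.123 to 0.237. The highest median came without Control P10 replicate 3.

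**Figure D2:**
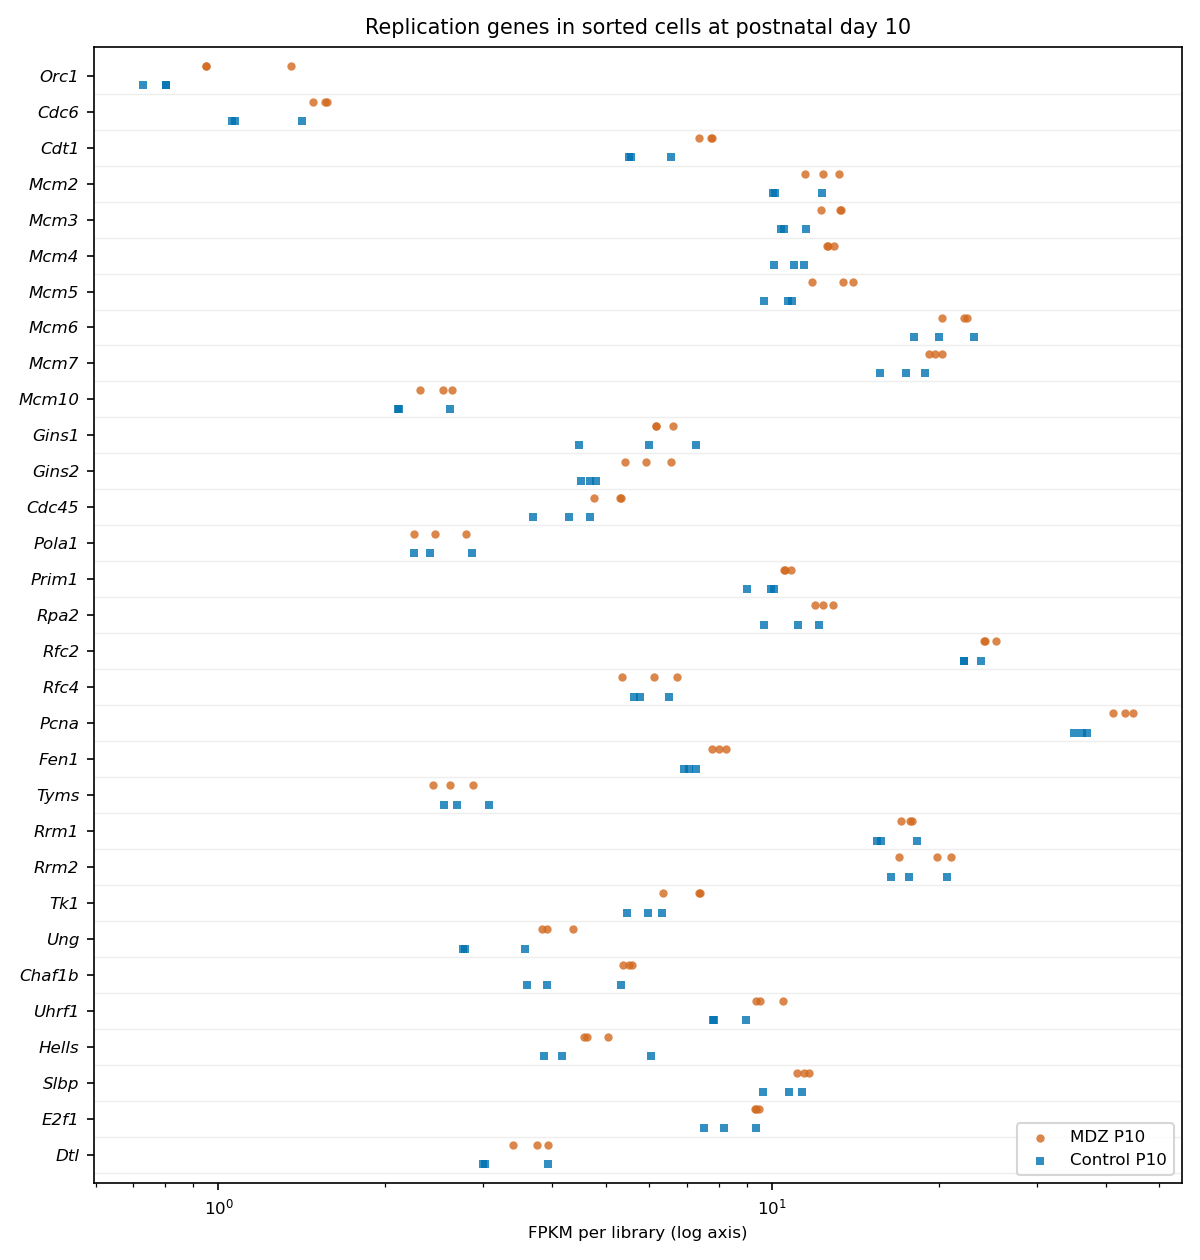
FPKM of each replication gene (down the page) in the 3 MDZ P10 libraries (circles) and the 3 Control P10 libraries (squares), on a log axis. The groups lie close together, and MDZ P10 lies to the right without overlap for 16 of the 30 genes tested, Pcna and Cdt1 among them.

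At 8 weeks the question was whether a difference was present weeks after the injections. In MDZ 8w against Control 8w, 4 members rose (Tk1, Slbp, Mcm6 and Mcm10) and none fell, where 4.68% of 15264 genes rose and 0.452% fell. Of the 31, 25 were positive, with a median log2 change of 0.80 against 0.36 for all genes. In 14 members each MDZ 8w library lay above both Control 8w samples, which held for 27.8% of all genes. The Control 8w libraries listed fewer genes above 0 than the other 8-week libraries, and quantile normalization moved the median of all genes to -0.06. With it the members' median was 0.54 and 1 member rose, as did 124 of all genes. With library quality weights 0 of 31 rose, with 19 of all genes called. With only these 2 groups in the fit 2 members rose, as did 1076 of all genes.

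Tk1 measured 24.1, 44.3 and 26.4 TPM in MDZ 8w and was listed at 0 in all 3 Control 8w libraries, so no fold is given (limma adjusted p = 0.00456). Tk1 lost the call in 3 of 19 alternatives, with quantile normalization (adjusted p 0.0794), with the replicate block (0.0505) and with library quality weights (0.226). RUN MDZ 8w, the other midazolam group, had 9.88, 8.75 and 24.4 TPM. Slbp measured 64.2, 96.6 and 85.9 TPM in MDZ 8w and 8.60, 21.8 and 16.3 TPM in Control 8w. Every MDZ 8w library was above every Control 8w library (log2 2.56 ± 0.42, adjusted p = 0.014). Slbp lost the call in 4 of 19 alternatives, when any 1 MDZ 8w library was left out (adjusted p 0.0545 to 0.0739) and with library quality weights (0.316).

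Mcm6 measured 139.7, 204 and 151 TPM in MDZ 8w and 61.6, 84.5 and 76.8 TPM in Control 8w, with no overlap (log2 1.19 ± 0.25, adjusted p = 0.0353). Mcm6 lost the call in 8 of 19 alternatives. These were without any 1 MDZ 8w library or RUN MDZ 8w replicate 3 (adjusted p 0.0578 to 0.127), with quantile normalization (0.0715), the replicate block (0.0683), only the 2 groups compared (0.056) and library quality weights (0.62). Mcm10, which helps to start the helicase, measured 9.67, 13.0 and 15.5 TPM in MDZ 8w and was listed at 0, 0 and 4.07 TPM in Control 8w, without overlap (log2 2.95 ± 0.63, adjusted p = 0.0384). Its log2 change depends on the pseudocount, being 4.77 with 0.1 and 1.56 with 5, and its call was lost in 13 of 19 alternatives. Dtl measured 24.5, 31.1 and 20.3 TPM in MDZ 8w and was listed at 0, 4.18 and 6.55 TPM in Control 8w, just outside the threshold (log2 3.36 ± 0.78, adjusted p = 0.0507).

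The other ring subunits did not pass at 8 weeks. Mcm4 measured 64.0, 101 and 71.9 TPM in MDZ 8w and 37.9, 37.1 and 39.4 TPM in Control 8w, without overlap (log2 1.00 ± 0.39, adjusted p = 0.176). Mcm5 measured 75.1, 102 and 93.7 TPM in MDZ 8w and 70.1, 57.0 and 60.9 TPM in Control 8w, also without overlap (log2 0.47 ± 0.28). Mcm3 measured 59.5, 83.6 and 58.8 TPM in MDZ 8w and 13.4, 105 and 113 TPM in Control 8w, where replicate 1 lay below all MDZ 8w libraries and replicates 2 and 3 above them. Its log2 change was 0.76 ± 0.73, and -0.70 without Control 8w replicate 1. Mcm7 had a log2 change of -0.01 ± 0.31, Mcm2 of 0.53 ± 0.43, Cdc6 of 0.80 ± 0.73 and Cdt1 of -0.31 ± 0.37, and the groups overlapped for all 4.

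For several members the Control 8w libraries did not agree on whether the gene was present. Gins1 measured 36.7, 45.1 and 47.2 TPM in MDZ 8w and was listed at 0, 107 and 90.3 TPM in Control 8w. Gins2 measured 31.9, 41.4 and 37.2 TPM in MDZ 8w and was listed at 44.8, 0 and 0 TPM in Control 8w. Both code for subunits of the same complex, yet one was at 0 only in Control 8w replicate 1 and the other only in replicates 2 and 3. Rfc4, a clamp loader subunit, measured 46.5, 69.4 and 27.3 TPM in MDZ 8w and was listed at 0, 65.4 and 52.0 TPM in Control 8w. Leaving out Control 8w replicate 1 turned the log2 changes of Gins1 and Rfc4 negative (-1.19 and -0.39). They were 5.45 and 5.51 without the averaged sample. For Gins2 the log2 change was -0.28 without the averaged sample and 5.23 without replicate 1. Of genes with values in all libraries, Pcna measured 285, 439 and 336 TPM in MDZ 8w and 417, 395 and 321 TPM in Control 8w, which overlapped (log2 -0.15 ± 0.28, adjusted p = 0.788). Tyms measured 16.5, 22.6 and 22.0 TPM in MDZ 8w and 9.66, 5.83 and 6.43 TPM in Control 8w, without overlap (log2 1.28 ± 0.46, adjusted p = 0.155). Hells (1.19), Uhrf1 (0.55) and E2f1 (0.66) also lay above Control 8w without overlap and did not pass.

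Counts of members called at 8 weeks turned on single libraries. Without any 1 MDZ 8w library, 1 member rose, as did 200 to 282 of all genes. Without Control 8w replicate 1, Control 8w is 1 sample whose spread is taken from the other groups. The median log2 change was then 0.495 for members and 0.238 for all genes. Without the averaged sample of replicates 2 and 3, which also leaves 1 sample, these medians were 1.39 and 0.353. Of G2/M genes, 2 of 34 rose (Aurka, a mitotic kinase, log2 3.76 ± 0.72, and Nusap1, a spindle protein, 3.74 ± 0.76) and none fell, with a median of 1.65. Mki67 and Top2a did not pass (log2 0.40 and 0.03). Of 56 other replication genes 1 rose, the origin recognition subunit Orc5 (log2 3.56 ± 0.80, adjusted p = 0.0472), and of 21 E2F and G1/S regulators none passed (lowest adjusted p 0.0734, 2 at an unadjusted p below 0.05). Radial glia markers summed to 3448 to 5078 TPM in MDZ 8w and 2221 to 2507 TPM in Control 8w, with 9 of 10 positive and 3 called (Fabp7, Hopx and Slc1a3). Neuroblast markers summed to 2704 to 3719 TPM in MDZ 8w and 4905 to 5036 TPM in Control 8w, with 9 of 10 negative and 2 called (Neurod1 and Prox1). Pericyte markers summed to 877 to 1453 TPM in MDZ 8w and 2427 to 3830 TPM in Control 8w, with 7 of 10 negative, 1 called (Vtn) and Myh11 or Anpep at 0 in Control 8w replicates 2 and 3. Microglia markers were 10 of 10 positive, as most members were (median 1.41, 0 called, lowest adjusted p 0.0592, 1 at an unadjusted p below 0.05), with sums of 131.6 to 321.2 TPM in MDZ 8w and 48.85 to 265.9 TPM in Control 8w. In Control 8w replicate 1, 7 of the 10 were at 0 (Cx3cr1, P2ry12, Tmem119, Aif1, C1qa, C1qb and Itgam), with Itgam at 0 in replicate 2 and C1qc and Itgam in replicate 3. Oligodendrocyte markers were 8 of 10 positive (median 1.52, 4 higher without overlap, 0 called, lowest adjusted p 0.106, 4 at an unadjusted p below 0.05), with sums of 219.4 to 1074 TPM in MDZ 8w and 301.2 to 485.1 TPM in Control 8w. Mobp, Opalin and Ermn were at 0 in all 3 Control 8w libraries, and Mag in replicates 2 and 3. Oligodendrocyte precursor markers were 9 of 10 positive (median 0.362, 0 called), and their sums overlapped. The part of these differences in the changes of the members was not tested.

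**Figure D3:**
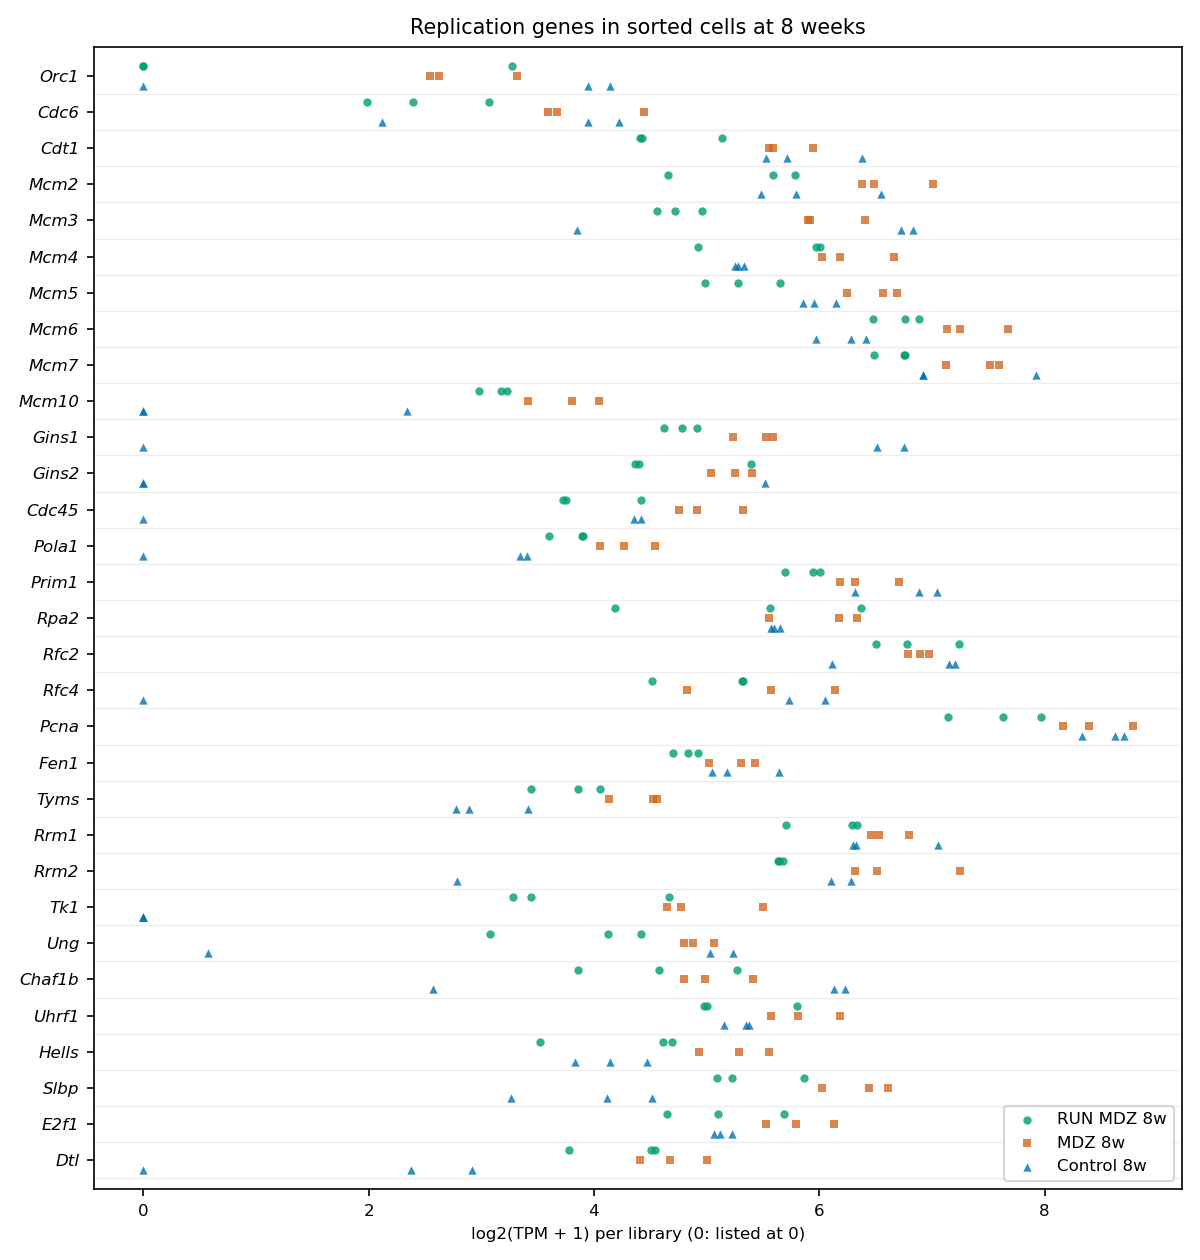
log2(TPM + 1) of each replication gene (down the page) in the 3 libraries each of RUN MDZ 8w (circles), MDZ 8w (squares) and Control 8w (triangles), where 0 means listed at 0. Control 8w has points at 0 for 9 genes, of which Tk1 has all 3 there, and MDZ 8w has none at 0.

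The third comparison asks how a running wheel altered midazolam-exposed mice. In RUN MDZ 8w against MDZ 8w all 31 members had a negative log2 change, from -1.74 to -0.04, with a median of -0.67 against 0.05 for all genes. None passed in the fit of 3 groups, where 24 of 15264 genes did (0.157%, either direction), and 9 members had an unadjusted p below 0.05. Of those 24 genes 33.3% were higher, and with quantile normalization 44.1% of the called genes were. The balance turned with only these 2 groups in the fit (66.7% higher of 360 called), with library quality weights (60% of 432), with Control 8w replicates 2 and 3 kept apart (58.2% of 122), without Control 8w replicate 1 (66.2% of 275) and without the averaged Control 8w sample (67% of 345). For 21 of the 31 every RUN MDZ 8w library lay below every MDZ 8w library, which held for 10.5% of all genes. The members summed to 1258, 1295 and 1366 TPM in RUN MDZ 8w and 1861, 2620.0 and 2029 TPM in MDZ 8w, without overlap. Replicate 2 was the highest of the MDZ 8w libraries for 27 of the 31 members.

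Licensing genes had the lowest median of the 6 roles, -1.20, and 8 of 9 did not overlap. Mcm5 measured 37.9, 30.7 and 49.2 TPM in RUN MDZ 8w and 75.1, 102 and 93.7 TPM in MDZ 8w. All RUN MDZ 8w libraries were lower, and its adjusted p was the lowest of the members (log2 -1.20 ± 0.25, limma adjusted p = 0.145). Mcm3 measured 22.5, 25.3 and 30.2 TPM in RUN MDZ 8w and 59.5, 83.6 and 58.8 TPM in MDZ 8w (log2 -1.33 ± 0.66, adjusted p = 0.57). Mcm5 and Mcm3 passed as lower when the Control 8w libraries were left out of the fit (adjusted p 0.0356 and 0.0282) and with library quality weights (0.0291 and 0.044). They also passed without Control 8w replicate 1 (0.0418 and 0.031) and without the averaged Control 8w sample (0.0354 and 0.0323).

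Mcm2 measured 54.0, 24.3 and 47.0 TPM in RUN MDZ 8w and 82.0, 128 and 88.8 TPM in MDZ 8w (log2 -1.28 ± 0.38, adjusted p = 0.284), where RUN MDZ 8w replicate 2 was lowest. Cdt1 measured 20.3, 20.6 and 34.1 TPM in RUN MDZ 8w and 46.1, 60.5 and 47.3 TPM in MDZ 8w (log2 -1.04 ± 0.33, adjusted p = 0.314). Cdc6 measured 2.97, 4.25 and 7.36 TPM in RUN MDZ 8w and 11.1, 20.8 and 11.8 TPM in MDZ 8w (log2 -1.42 ± 0.65, adjusted p = 0.526). All 3 were lower without overlap, as were Mcm4, Mcm6 and Mcm7, whose changes were smaller (-0.66, -0.64 and -0.75). Orc1 was listed at 8.69, 0 and 0 TPM in RUN MDZ 8w and measured 5.16, 9.00 and 4.82 TPM in MDZ 8w, which overlapped.

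At the fork, Pcna measured 140.4, 249.7 and 198 TPM in RUN MDZ 8w and 285, 439 and 336 TPM in MDZ 8w. The groups did not overlap (log2 -0.86 ± 0.25, limma adjusted p = 0.267). Prim1 measured 63.4, 50.9 and 60.7 TPM in RUN MDZ 8w and 78.8, 104 and 71.8 TPM in MDZ 8w (log2 -0.52 ± 0.21), also without overlap. Rfc2 was nearest to no change, at 109, 149.9 and 89.6 TPM in RUN MDZ 8w and 118, 125 and 109.6 TPM in MDZ 8w (log2 -0.04 ± 0.31). Cdc45, the helicase cofactor, measured 20.4, 12.2 and 12.5 TPM in RUN MDZ 8w and 29.2, 39.0 and 25.9 TPM in MDZ 8w, lower without overlap (log2 -1.03 ± 0.99, adjusted p = 0.852). Gins2 overlapped, because RUN MDZ 8w replicate 3 reached 41.2 TPM.

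Rrm2, the small ribonucleotide reductase subunit made in S phase, measured 50.3, 48.6 and 49.1 TPM in RUN MDZ 8w and 90.3, 152 and 78.7 TPM in MDZ 8w. The RUN MDZ 8w values were close to each other and below all MDZ 8w values (log2 -1.04 ± 0.76, adjusted p = 0.784). Ung measured 7.42, 20.3 and 16.4 TPM in RUN MDZ 8w and 26.9, 32.6 and 28.5 TPM in MDZ 8w, without overlap. Tk1 overlapped, since RUN MDZ 8w replicate 3, at 24.4 TPM, lay just above the lowest MDZ 8w library. Slbp measured 33.0, 57.4 and 36.5 TPM in RUN MDZ 8w and 64.2, 96.6 and 85.9 TPM in MDZ 8w, without overlap (log2 -0.96 ± 0.37, adjusted p = 0.44). E2f1 (24.1, 33.2 and 50.6 TPM in RUN MDZ 8w, 45.0, 54.5 and 68.9 TPM in MDZ 8w) and Dtl overlapped.

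Of 34 G2/M genes in this comparison, 21 were negative (median -0.25) and 4 lay lower without overlap, with 0 called and 1 at an unadjusted p below 0.05. Their sum was 1189, 1166 and 1084 TPM in RUN MDZ 8w and 929, 1693 and 1287 TPM in MDZ 8w, which overlapped. Of 56 other replication genes, 47 were negative (median -0.52), 21 were lower without overlap and 0 passed (11 at an unadjusted p below 0.05). Of 21 E2F and G1/S regulators 12 were negative (median -0.08) and 0 passed (0 at an unadjusted p below 0.05). Mki67 and Top2a had log2 changes of -0.38 ± 0.28 and 0.08 ± 0.29. Whether the replication list differed from the G2/M list was not tested.

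Markers of 3 other cell types had higher sums in RUN MDZ 8w, and those of microglia were mostly lower. Endothelial markers summed to 1034 to 1354 TPM in RUN MDZ 8w and 371.9 to 489.6 TPM in MDZ 8w, with 10 of 10 positive and 3 called (Cdh5, Cldn5 and Flt1). Pericyte markers summed to 2393 to 3491 TPM in RUN MDZ 8w and 877 to 1453 TPM in MDZ 8w (10 of 10 positive, Acta2 called), and oligodendrocyte markers to 2693 to 4077 TPM in RUN MDZ 8w and 219.4 to 1074 TPM in MDZ 8w (10 of 10 positive, 0 called, lowest adjusted p 0.117). No marker of these 3 lists was at 0 in either group. Oligodendrocyte precursor markers were also 10 of 10 positive (median 0.825, 0 called). Their sums overlapped, at 3253 to 8848 TPM in RUN MDZ 8w and 1813 to 6990 TPM in MDZ 8w. Microglia markers summed to 92.92 to 215.4 TPM in RUN MDZ 8w and 131.6 to 321.2 TPM in MDZ 8w, which overlapped. Of the 10, 9 were negative, as the members were (median -0.90, 0 called, lowest adjusted p 0.191, 1 at an unadjusted p below 0.05), with P2ry12, Aif1 and C1qc at 0 in RUN MDZ 8w replicate 1 and Aif1 and C1qc in replicate 2. Radial glia markers overlapped, at 3270 to 3700 TPM in RUN MDZ 8w and 3448 to 5078 TPM in MDZ 8w, and 6 of 10 were negative. The part of these markers in the lower level of the members was not tested. Leaving out 1 library at a time, 30 or 31 of the 31 members stayed negative, with medians of -0.825 to -0.638. The exceptions, Rfc2 in each case, came without MDZ 8w replicate 2 and without RUN MDZ 8w replicate 3.

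**Figure D4:**
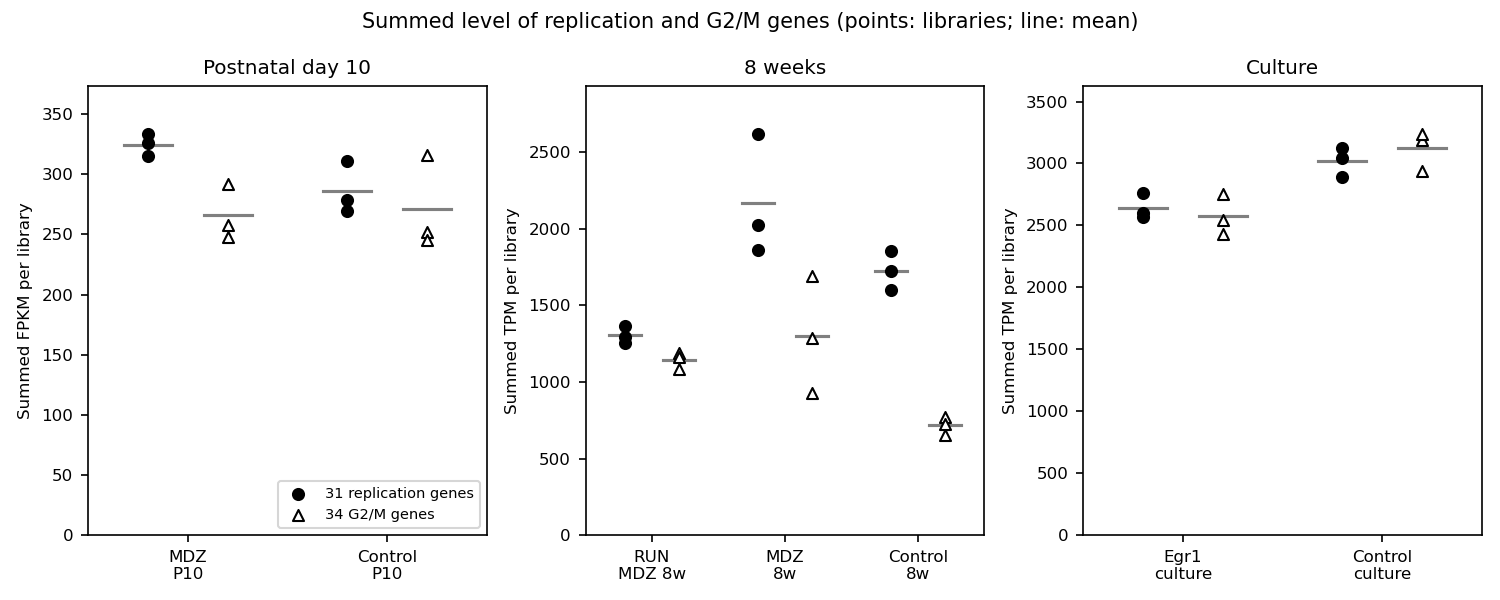
Summed level per library of the 31 replication genes (filled circles) and 34 G2/M genes (open triangles), in FPKM at postnatal day 10 and TPM at 8 weeks and in culture; lines are group means. The replication sum is 1258 to 1366 TPM in RUN MDZ 8w and 1861 to 2620 TPM in MDZ 8w without overlap, while the G2/M sums of those groups overlap.

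The last 8-week comparison sets RUN MDZ 8w against Control 8w, which shares its libraries with both comparisons above. Here 3 members rose (Tk1, Slbp and Dtl), where 9.41% of all genes did, and 1 fell (Prim1), where 1.90% of all genes did. Of the 31, 17 were positive and 14 negative, and the median was 0.20 against 0.51 for all genes. Quantile normalization moved the median of all genes to -0.09 and that of the members to -0.41, with 0 members called and 68.5% of all calls higher, against 83.2% before. With library quality weights, and with only these 2 groups in the fit, no gene of any kind was called.

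Prim1 measured 63.4, 50.9 and 60.7 TPM in RUN MDZ 8w and 117, 132 and 78.9 TPM in Control 8w, below every Control 8w library (log2 -0.92 ± 0.24, limma adjusted p = 0.0464). Slbp was at 33.0, 57.4 and 36.5 TPM in RUN MDZ 8w and 8.60, 21.8 and 16.3 TPM in Control 8w, without overlap (log2 1.60 ± 0.42, adjusted p = 0.0478). Dtl had a log2 change of 2.94 ± 0.78 (adjusted p = 0.0494), with 1 Control 8w library at 0. These 3 calls lay close to the threshold and were each lost in 14 or 15 of 19 alternatives, among them leaving out any 1 MDZ 8w or RUN MDZ 8w library. Tk1 passed with adjusted p = 0.00931 and again has no fold. Its call was lost in 4 of 19 alternatives, with the replicate block (0.0564), only these 2 groups (0.11), quantile normalization (0.266) and library quality weights (0.36). Cdt1 and Pcna stood just outside, with log2 changes of -1.34 ± 0.37 and -1.01 ± 0.28 (adjusted p = 0.0537 and 0.0555). Both lay below every Control 8w library, and so did Mcm5, Mcm7 and Fen1. Of the 31 members, 6 lay below both Control 8w samples without overlap and 7 above. The same held for 1611 and 3731 of all 15264 genes tested.

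Other genes of the pathway moved in both directions in RUN MDZ 8w against Control 8w. Dut, which removes dUTP, and Dna2, a nuclease-helicase, fell (log2 -1.27 ± 0.21 and -2.17 ± 0.41), and Orc5 rose (3.23 ± 0.80), 3 of 56. Of the regulators only Rb1, a repressor of E2F, rose among 21 (log2 1.61 ± 0.40, adjusted p = 0.0416). Of 34 G2/M genes Nusap1, Aurka and Prc1 rose, with a list median of 1.80. Markers also differed. Oligodendrocyte markers summed to 2693 to 4077 TPM in RUN MDZ 8w and 301.2 to 485.1 TPM in Control 8w (10 of 10 positive, 9 called, with Mobp, Opalin and Ermn at 0 in all Control 8w libraries), and 6 of 10 endothelial markers rose. Neuroblast markers were lower, at 2865 to 3234 TPM in RUN MDZ 8w and 4905 to 5036 TPM in Control 8w. Radial glia markers were higher, at 3270 to 3700 TPM in RUN MDZ 8w and 2221 to 2507 TPM in Control 8w. Of these, 8 of 10 were positive and 2 called. Oligodendrocyte precursor markers were 10 of 10 positive with 0 called, and their sums overlapped. The part of all these markers in the changes of the members was not tested.

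In culture the introduced gene was checked first. Egr1 measured 1769, 1390 and 1291 TPM in Egr1 culture and 360.7, 284.7 and 344.3 TPM in Control culture (log2 2.16 ± 0.13, limma adjusted p = 4.02e-06). RNA from the virus and from the cell's own gene cannot be told apart in this value. In Egr1 culture against Control culture 1 member rose (E2f1) and 16 fell, where 15.2% of 12402 genes rose and 29.0% fell. The changes were small: 29 of 31 were negative, from -0.45 to 0.44 over all members, with a median of -0.22 against -0.10 for all genes. With median-of-ratios scaling the median of all genes was 0.01, that of the members -0.11, and 5 members fell while E2f1 rose. With that scaling 5497 of all genes were called, of which 2776 (50.5%) rose and the others fell. Before it 5486 were called, of which 1888 (34.4%) rose. With quantile normalization 14 members fell and 1 rose, with 5666 of all genes called and 2452 (43.3%) of those higher. The members summed to 2603, 2762 and 2568 TPM in Egr1 culture and 2887, 3128 and 3045 TPM in Control culture, without overlap.

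E2f1, the transcription factor that switches on S phase genes, was the member that rose. It measured 40.1, 38.5 and 35.4 TPM in Egr1 culture and 30.6, 25.6 and 27.1 TPM in Control culture, without overlap (log2 0.44 ± 0.09, limma adjusted p = 0.00368). Pola1 fell the most, with 28.3, 28.5 and 23.0 TPM in Egr1 culture and 33.9, 36.6 and 39.0 TPM in Control culture (log2 -0.45 ± 0.10, adjusted p = 0.00683). Tk1 had the lowest adjusted p, with 83.6, 87.6 and 85.0 TPM in Egr1 culture and 107, 112 and 107 TPM in Control culture (log2 -0.35 ± 0.06, adjusted p = 0.0012). Every Egr1 culture library lay below every Control culture library for both.

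Slbp measured 57.1, 62.8 and 55.4 TPM in Egr1 culture and 71.6, 74.8 and 80.2 TPM in Control culture (log2 -0.37 ± 0.07, adjusted p = 0.00392). Cdc6 measured 12.4, 12.4 and 10.6 TPM in Egr1 culture and 14.7, 15.5 and 16.7 TPM in Control culture (log2 -0.38 ± 0.10, adjusted p = 0.0123). Rrm2 measured 197, 209 and 183 TPM in Egr1 culture and 230.3, 243 and 244 TPM in Control culture (log2 -0.28 ± 0.06, adjusted p = 0.00683). None of these 3 overlapped. Tk1, Slbp, Cdc6, Rrm2 and Pola1 were the 5 that also fell with median-of-ratios scaling, and they cover nucleotide supply, histone mRNA, licensing and priming.

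By role, 5 of 9 licensing genes fell (Cdc6, Mcm2, Mcm3, Mcm4 and Mcm6), 3 of 4 helicase activators (Mcm10, Gins2 and Cdc45) and 3 of 7 fork genes (Pola1, Rfc2 and Fen1). Likewise 3 of 5 nucleotide genes (Rrm1, Rrm2 and Tk1) and 2 of 4 chromatin genes (Chaf1b and Slbp) fell. Gins2 measured 95.5 ± 6.13 TPM in Egr1 culture and 122 ± 10.7 TPM in Control culture (SD, n = 3 each), and Mcm6 134 ± 4.44 TPM in Egr1 culture and 161 ± 8.07 TPM in Control culture. Fen1 measured 68.1 ± 6.65 TPM in Egr1 culture and 84.1 ± 2.95 TPM in Control culture, and Cdc45 47.9 ± 0.753 TPM in Egr1 culture and 57.0 ± 1.06 TPM in Control culture. All 4 lost their call with median-of-ratios scaling. Mcm3, Mcm4, Rrm1 and Chaf1b lay nearer the threshold (adjusted p 0.0284, 0.0386, 0.0333 and 0.029). All 4 were lost with median-of-ratios scaling and without Control culture replicate 2, without Control culture replicate 3 or without Egr1 culture replicate 3.

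Pcna, the most abundant member, did not pass, at 444, 461 and 488 TPM in Egr1 culture and 439, 510.5 and 473 TPM in Control culture (log2 -0.03 ± 0.07, adjusted p = 0.765). Its groups overlapped, and with median-of-ratios scaling its sign turned, as did those of Mcm7, Rfc4 and Rpa2. Ung, at 37.0, 41.6 and 37.0 TPM in Egr1 culture and 37.8, 38.0 and 35.2 TPM in Control culture, was the other positive member (log2 0.06 ± 0.08, adjusted p = 0.583). Mcm5, Uhrf1 and Dtl were lower without overlap and did not pass (log2 -0.14, -0.19 and -0.20). Chaf1b, the member with the EGR1 motif in its promoter window, measured 55.0, 60.5 and 53.9 TPM in Egr1 culture and 63.4, 65.9 and 69.0 TPM in Control culture (log2 -0.22 ± 0.07, adjusted p = 0.029).

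Other cycle genes in culture had medians near that of the members. Of 56 other replication genes 25 fell and 2 rose (median -0.23). The largest changes among those called were in Dna2 (-0.65), Ticrr, which helps to fire origins (-0.61), and the polymerase subunits Pold4 (-0.60), Pola2 (-0.53) and Pole (-0.48). Of 34 G2/M genes 24 fell and 0 rose (median -0.28), among them Top2a (-0.51), Anln (-0.49), Cenpf (-0.44), Prc1 (-0.43) and Mki67 (-0.42). Of 21 E2F and G1/S regulators 7 fell and 1 rose (median -0.25). Cdk2, the kinase of S phase entry (-0.69), Lin9 (-0.44), Skp2 (-0.36) and Ccne1, cyclin E1 (-0.34), fell, and Tfdp2, a partner of E2F proteins (0.36), rose. Neuronal markers summed to 42.69 to 52.13 TPM in Egr1 culture and 18.8 to 21.38 TPM in Control culture (5 rose and 1 fell of 7 tested). Oligodendrocyte precursor markers summed to 841.5 to 976.8 TPM in Egr1 culture and 1661 to 1751 TPM in Control culture (4 fell and 2 rose of 6 tested), and 5 of 5 oligodendrocyte markers tested rose. Neuroblast markers summed to 169.4 to 206.7 TPM in Egr1 culture and 35.45 to 42.1 TPM in Control culture (1 rose of 4 tested). Radial glia markers summed to 5038 to 5279 TPM in Egr1 culture and 5692 to 6146 TPM in Control culture. Of these 10, 3 rose and 4 fell, and 2 of 2 microglia markers tested fell. The part of these markers in the members' changes was not tested.

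**Figure D5:**
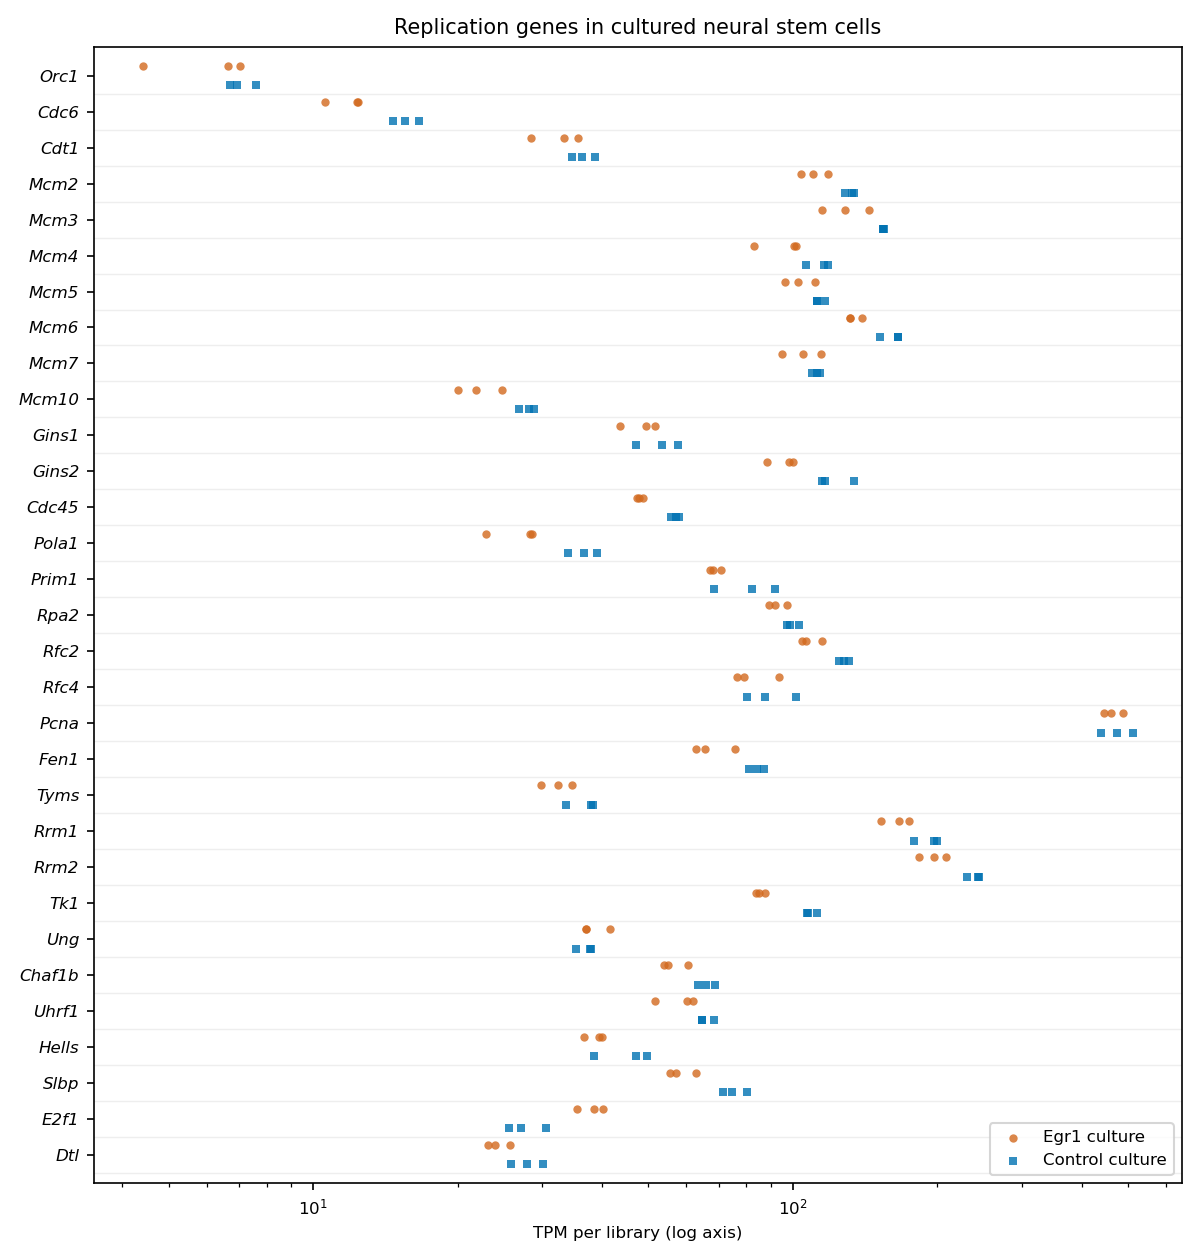
TPM of each replication gene (down the page) in the 3 Egr1 culture libraries (circles) and 3 Control culture libraries (squares), on a log axis. E2f1 lies to the right in Egr1 culture and Pcna overlaps. To the left without overlap lie 19 of the 31 genes, Tk1 and Slbp among them. The same held for 4605 of all 12402 genes tested.

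Set side by side, single members kept no one order of change across the comparisons. Mcm5 had log2 changes of 0.30 in MDZ P10 against Control P10, 0.47 in MDZ 8w against Control 8w, -1.20 in RUN MDZ 8w against MDZ 8w and -0.14 in Egr1 culture against Control culture. Those of Pcna were 0.25, -0.15, -0.86 and -0.03 in the same order. Those of Slbp were 0.10, 2.56, -0.96 and -0.37, and those of E2f1 0.15, 0.66, -0.67 and 0.44. Slbp was thus called higher at 8 weeks and lower in culture, and E2f1 was called in culture only. Tk1 and Slbp were called in 3 comparisons each, of which 2 share the Control 8w libraries, and Mcm6 and Mcm10 in 2 each. Of the 31 members 12 were called in none of the 5: Orc1, Cdt1, Mcm5, Mcm7, Gins1, Rpa2, Rfc4, Pcna, Tyms, Ung, Uhrf1 and Hells. Changes at different ages and in culture come from tables normalized apart, and differences between them were not tested.

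Counting of overlapping genes limits some members. Orc1, Mcm7, Gins1, Gins2, Cdc45, Pola1, Rfc4, Fen1, Tk1, Ung, E2f1 and Dtl overlap another RefSeq gene on GRCm38.p6, and the strand setting of the counting is not given in the sources used here. Their values can include reads of the neighbour and are uncertain to that extent. Mcm7 for example (chromosome 5, 138164583 to 138172111) overlaps the gene Ap4m1 and the microRNAs Mir25, Mir93 and Mir106b. Tk1 (chromosome 11, 117815519 to 117826087) overlaps Afmid.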

How the data were processed

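RNA was sequenced from sorted EGFP-positive dentate gyrus cells (about 50000 cells a library at P10 and 30000 at 8 weeks) and from cultured neural stem cells, with a directional kit, per the labels' protocols. The authors deposited a separate table for each library: FPKM values at P10, and TPM values at 8 weeks and in culture. The units were read from the values, since no header states them. The submitters' processing notes name mm10, TopHat, Bowtie2 and DESeq2 without versions or roles; the strand setting is not given in the sources used here. Of 31 samples listed, 10 of other assays were not analysed here.

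Values were tested as log2(value + 1) with limma 3.58.1 (trended variance; R 4.3.3), keeping genes whose mean over the libraries of a fit was 1 or more, in 3 fits: the 6 P10 libraries, the 8-week libraries of all 3 groups together, and the 6 culture libraries. A fold change on the log2(value + 1) scale understates that of low genes. P-values were adjusted by Benjamini and Hochberg over all genes tested, and "rose" and "fell" mean an adjusted p below 0.05. Control 8w replicates 2 and 3 were closer to each other than any other pair within an 8-week group and were averaged to 1 sample. The labels do not say that culture libraries came from separate cultures, so the spread behind those p-values may be technical. The script was tested on simulated data. Alternatives were pseudocounts of 0.1 and 5, no filter, median-of-ratios scaling, quantile normalization, the replicate number as a block, library quality weights, only the 2 groups compared, replicates 2 and 3 kept apart and each library left out in turn. Leaving out their average was chosen after seeing the data.

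The 31 members and all lists were chosen with earlier results of these data known. Named are all members, up to 5 called genes of each of the 3 other cycle lists with the largest change, Mki67, Top2a and Egr1. Promoters came from RefSeq (GRCm38.p6).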

Additional observations from a re-analysis of the deposited data

Results flagged for a closer look

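Prim1, the primase subunit, had a log2 change of 0.12 in MDZ P10 against Control P10 and of -0.40 in MDZ 8w against Control 8w, a difference of 0.526. The MDZ P10 libraries all lay above those of Control P10, and the MDZ 8w libraries all lay below both Control 8w samples. Control 8w replicate 3 alone, at 78.9 TPM, was below MDZ 8w replicate 2, at 104 TPM, and was averaged with replicate 2. The change passed the limma test at neither age, and the difference between the ages was not tested.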

How the results depend on the processing

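Over all alternatives, the log2 changes of members kept direction and side of the threshold in 347 of 360 cases at P10, 527 of 589 in MDZ 8w against Control 8w, 579 of 589 in RUN MDZ 8w against MDZ 8w, 486 of 589 in RUN MDZ 8w against Control 8w and 329 of 372 in culture. A member called neither in the main fit nor in the alternative counts among these if its direction stayed. Calls of the main fit were lost in 28 cases in MDZ 8w against Control 8w. They were lost in 47 cases in RUN MDZ 8w against Control 8w and 35 in culture. The cause of the changes below was not tested. Depth is unknown at 8 weeks, where Control 8w counts as 2 samples, and a gene listed at 0 there may still be present.

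For MDZ P10 against Control P10, 1 gene was called of all tested, against 0 with median-of-ratios scaling, 2 with a pseudocount of 5 and 4 with quantile normalization. Leaving out 1 library gave 0 to 101, the highest without Control P10 replicate 2, and 0 members in each case. Rfc4 turned to -0.00279 with median-of-ratios scaling and -0.00491 with quantile normalization. Without 1 library, Gins1 ranged from -0.0556 to 0.241, Hells from -0.0697 to 0.195, Pola1 from -0.0615 to 0.0698, Rfc4 from -0.0522 to 0.0913, Tyms from -0.094 to 0.00834 and Top2a from -0.101 to 0.078.

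For MDZ 8w against Control 8w, all genes called numbered 783, against 1787 with Control 8w replicates 2 and 3 kept apart, 19 with library quality weights, 1410 with a pseudocount of 0.1, 461 with 5 and 152 with quantile normalization. Members called numbered 4, against 0 with library quality weights, 2 with only the 2 groups compared and 1 with quantile normalization. Without 1 library or the averaged Control 8w sample they numbered 1 to 13, and all genes 207 to 4995. Both highest counts came without the averaged sample, which leaves Control 8w as 1 sample. Reversed were Cdc6 (-0.497), Orc1 (-0.666), Mcm7 (0.0737) and Egr1 (0.0256) with quantile normalization, Mcm7 (0.158) and Rrm1 (0.0352) with replicates 2 and 3 kept apart, and Top2a with weights (-0.0438) and median-of-ratios scaling (-0.00218). Without 1 library or the averaged Control 8w sample, Cdc6 ranged from -0.187 to 1.79 and Cdt1 from -0.685 to 0.0741. Chaf1b ranged from -1.11 to 2.5, Fen1 from -0.389 to 0.132, Gins1 from -1.19 to 5.45 and Gins2 from -0.284 to 5.23. Mcm3 ranged from -0.703 to 2.23. Mcm7 ranged from -0.51 to 0.493, Orc1 from -1.22 to 2.83, Rfc2 from -0.292 to 0.775, Rfc4 from -0.389 to 5.51, Rrm1 from -0.459 to 0.282, Ung from -0.215 to 4.34 and Top2a from -0.265 to 0.211.

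For RUN MDZ 8w against MDZ 8w, all genes called numbered 24, against 122 with Control 8w replicates 2 and 3 kept apart, 432 with library quality weights and 360 with only the 2 groups compared. Members called numbered 0, and 2 with weights or only the 2 groups. Without 1 library or the averaged Control 8w sample, all genes numbered 0 to 345 and members 0 to 2, the 345 without that sample. Over the same fits Rfc2 ranged from -0.243 to 0.125 and Top2a from -0.103 to 0.373.

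For RUN MDZ 8w against Control 8w, all genes called numbered 1727, against 2904 with replicates 2 and 3 kept apart, 0 with weights or only the 2 groups compared and 406 with quantile normalization. Members called numbered 4, against 7 with replicates kept apart, 0 with weights, only the 2 groups or quantile normalization, 1 without a filter and 2 with a pseudocount of 5. Reversed with quantile normalization were Chaf1b (-0.748), Hells (-0.650), Mcm10 (-0.0356), Tyms (-0.660), Ung (-0.923) and Mki67 (-0.124), and elsewhere Chaf1b (-0.405) and E2f1 (0.0109) with replicates kept apart, Mki67 (-0.0379) with median-of-ratios scaling and Rpa2 (0.0111) with weights. Without 1 library or the averaged Control 8w sample, all genes numbered 910 to 5649 and members 1 to 16, the highest without that sample. Cdc45 ranged from -0.418 to 3.97, Cdc6 from -1.61 to 0.367, Chaf1b from -1.61 to 2.0, E2f1 from -0.284 to 0.237, Gins1 from -1.86 to 4.78, Gins2 from -0.795 to 4.72, Hells from -0.0367 to 0.58 and Mcm3 from -2.03 to 0.897. Orc1 ranged from -2.96 to 1.09, Rfc2 from -0.337 to 0.73, Rfc4 from -0.848 to 5.05, Rpa2 from -0.74 to 0.348, Rrm2 from -0.545 to 2.87, Uhrf1 from -0.324 to 0.092, Ung from -1.26 to 3.29, Mki67 from -0.133 to 0.191 and Top2a from -0.0014 to 0.241.

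For Egr1 culture against Control culture, 17 members were called and 6 with median-of-ratios scaling, which also turned Mcm7 (0.0121), Pcna (0.0828), Rfc4 (0.00345) and Rpa2 (0.00911). Without 1 library Pcna ranged from -0.0832 to 0.0254.

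Replicate numbers gave no clear sign of pairing: deviations of same-numbered libraries from their group means correlated at -0.0771 to 0.133. With 3 libraries a group, these correlations cannot show that pairing was absent. With the replicate block, all genes called numbered 0 at P10, 164 in MDZ 8w against Control 8w, 0 in RUN MDZ 8w against MDZ 8w, 496 in RUN MDZ 8w against Control 8w and 4646 in culture (5486 without it). Members called with the block numbered 1 in MDZ 8w against Control 8w, 0 in RUN MDZ 8w against Control 8w and 14 in culture, and Uhrf1 (0.0313) and Mki67 (-0.0108) turned sign in RUN MDZ 8w against Control 8w.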
